A study of Mus musculus with 2 samples.

Results

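Choroid plexus epithelial cells were examined in droplet single-cell RNA-seq of brain without cerebellum from wild-type (WT) female mice, 1 library for each of 2 ages, 3 and 24 months. The tissue had been digested with papain, cleared of myelin on a Percoll gradient and sorted for cells that exclude the dye 7-AAD, so the data hold the epithelial cells that survived these steps. The study's text names several mice per age, but no barcode can be traced to its mouse, and each age is 1 sample. No test between ages was therefore possible, and intervals cover counting error only. The cells were selected on measured values. A barcode was a member if it held 200 to 4000 detected genes, at most 10% mitochondrial UMIs (unique molecular identifiers, each 1 captured RNA molecule), at least 10% of its UMIs from Ttr, and at least 1 UMI of Folr1, Kcne2, Clic6, Kl or Kcnj13. The rule found 127 members among 7366 barcodes at 3 months and 160 among 6264 at 24 months, 287 of 13630 in all.

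The choroid plexus is a folded sheet of cuboidal epithelium in the brain ventricles that lies over leaky capillaries. Its cells secrete cerebrospinal fluid by moving ions and water, seal the blood off from that fluid with tight junctions, and release carrier proteins such as transthyretin (Ttr), which binds thyroid hormone and the retinol-binding protein. The same sheet is a border where blood-borne immune signals, among them interferons, reach the brain.

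Members made up 1.72% of barcodes at 3 months (exact Clopper-Pearson 95% interval 1.44 to 2.05) and 2.55% at 24 months (2.18 to 2.98), a ratio of 1.48 (1.17 to 1.89). This ratio depended on the mitochondrial limit. Above 5% mitochondrial UMIs lay 55 members (43.3%) at 3 months and 104 (65.0%) at 24 months, and a limit of 5% left 72 and 56 members, or 1.35% and 1.49% of barcodes. A further 6 and 27 barcodes met the rest of the rule but exceeded 10%. Members held a median of 3786 UMIs and 1284 genes at 3 months and 4726.5 UMIs and 1523 genes at 24 months, against 1814 and 1796.5 UMIs in the other cells. The libraries shared 69 barcodes, and none of these was a member in both.

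Ttr, which chose the cells, held a median of 33.18% of a member's UMIs at 3 months (range 10.3 to 50.5) and 33.22% at 24 months (11.03 to 51.5). The members just inside the 10% limit held 10.27, 10.58 and 10.99% at 3 months and 11.03, 11.34 and 12.01% at 24 months. The nearest marker-positive barcodes outside it held 9.76, 9.29 and 7.69%, and 9.53, 1.34 and 1.03%. In the other cells the median Ttr share was 0.128% at 3 months and 0.443% at 24 months, 3.47-fold higher, while it was level in the members. RNA of broken cells can enter any droplet of such a library, and shares of cells below are therefore given with those of the other cells.

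**Figure D1:**
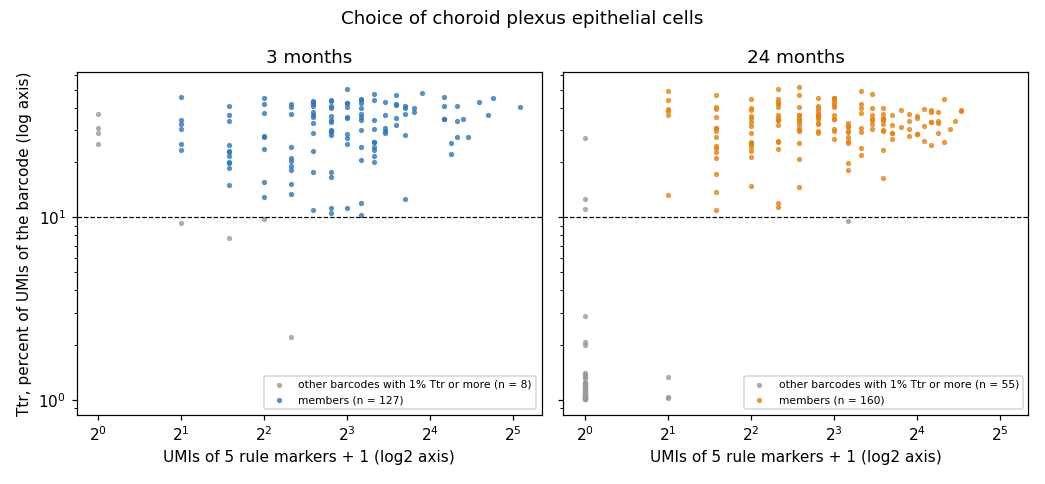
Ttr share of UMIs (vertical, log axis, percent) against UMIs of the 5 other rule markers plus 1 (horizontal, log2 axis), 1 point per barcode with at least 1% Ttr, coloured for members and grey for the rest, with 1 panel per age. The 127 and 160 members stand above the dashed line at 10%, and few barcodes lie just below it.

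Markers of the epithelium that the rule did not use were also high in the members. From here on, a level is the sum of a gene's UMIs over the members of a library, relative to the sum of their UMIs without Ttr and mitochondrial genes and given as CPM, and the log2 ratio is 24 over 3 months. For shares of cells, each cell was thinned to 1000 such UMIs, which left out 17 and 5 members. Enpp2 (autotaxin, which makes lysophosphatidic acid) had 3950 UMIs at 3 months and 4981 at 24 months, a level 128 and 100 times that of the other cells. It was found in 98.2% and all of the thinned members, against 6.02% and 8.87% of other cells. Sostdc1, a secreted BMP and Wnt antagonist, was 492 and 210 times above the other cells. Htr2c (a serotonin receptor) was 426 and 148 times above them and the calmodulin-like gene Calml4 98.0 and 70.6 times. The transcription factor Otx2, which maintains this epithelium, was 36.0 and 42.2 times above them. All 13 further markers listed had UMIs at both ages, and their summed level was 18462 CPM at 3 months and 16945 at 24 months, against 205 and 255 in other cells.

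With all members and no thinning, no counted gene of either set of identity genes passed 1.5-fold between ages. Of the 5 rule markers other than Ttr, the log2 ratios ran from -0.29 (Clic6) to -0.04 (Kcnj13). These 5 genes also chose the cells, so their values are a description only. Folr1, the folate receptor that carries folate into the fluid, had 284 and 336 UMIs and a log2 ratio of -0.26 (95% counting interval -0.49 to -0.03). Kl, which encodes klotho, had 178 and 212 UMIs and a ratio of -0.25 (-0.54 to 0.05). Under the 5% mitochondrial limit Folr1 stood at -0.595 and Kl at -0.74, and after thinning Cldn2 stood at -0.86, all past 1.5-fold. Of the 13 further markers, 10 had at least 50 UMIs over both libraries, and their ratios lay between -0.25 (Calml4) and 0.45 (Car12, -0.31 under the 5% mitochondrial limit) with a median of 0.01.

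RNA of other cell types was present in the members and moved with age. Smooth muscle and pericyte markers went from a summed 588 to 2248 CPM in members and from 2905 to 6084 in other cells. In members 6 of the 8 reached 50 UMIs, and all 6 were over 1.5-fold higher, with a median log2 ratio of 1.97 against 1.04 in other cells. Endothelial markers went from 497 to 880 CPM (1918 to 3198 in other cells), and microglial markers from 2127 to 1614 (10049 to 6197). Border-associated macrophage markers summed to 28.6 and 44.4 CPM, with Lyve1 at 0 UMIs. Of the ependymal list, the defining genes Ccdc153 and Tmem212 had 2 and 0 UMIs at 3 months and 1 and 2 at 24 months, while Dbi and Mia were above their level in other cells. At least 10 UMIs of 1 of 9 other cell types were carried by 17 members at 3 months and 29 at 24 months. The part of such RNA in the results below was not tested, and values without those members are given beside the genes they moved most.

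Over all members, 2504 genes had at least 50 UMIs in the 2 libraries together, and their median log2 ratio was -0.02. At least 1.5-fold higher at 24 months were 193 of them (7.71%), and 142 (5.67%) were at least 1.5-fold lower. The counts of genes past 1.5-fold in each list below stand beside these shares. The balance moved with the processing: scaled to all UMIs, 160 were higher and 185 lower. With the 5% mitochondrial limit 1220 genes were counted, of which 81 were higher (6.64%) and 96 lower (7.87%). Genes were then named from those whose level in members was at least that in the other cells, as the 12 with the highest and the 12 with the lowest ratios, ranked by the interval bound nearest 0. This level was required only in the library where the gene was higher, so the condition used the change itself and the named genes are a description. At 3 months Ifi27l2a and Apoc1 were below the other cells, as were Nars, Gm8186 and Snrpa at 24 months.

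**Figure D2:**
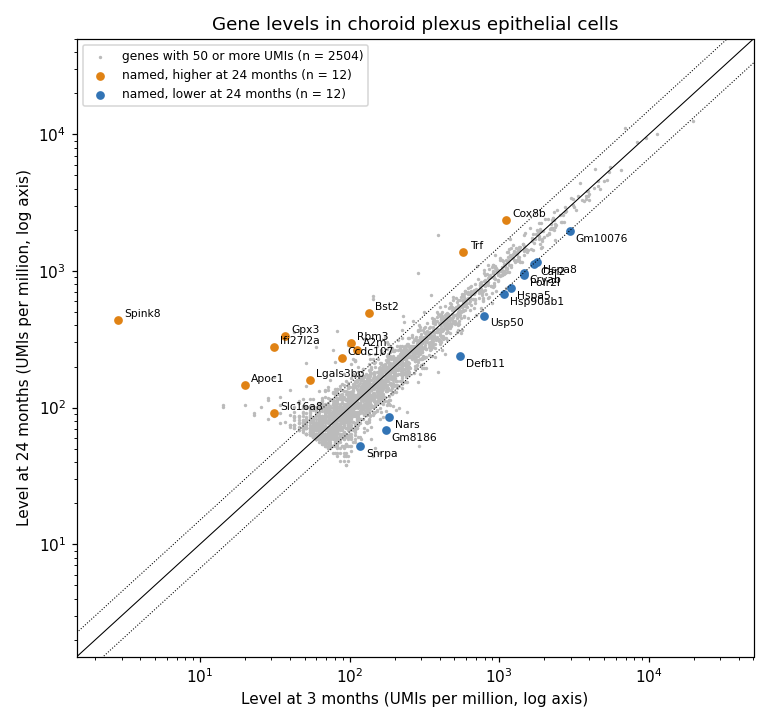
Level of each of the 2504 genes in members at 3 months (horizontal) and 24 months (vertical), in CPM on log axes. The solid line marks equal levels and the dotted lines 1.5-fold; named genes are orange (higher at 24 months) or blue (lower), and Spink8, with 1 UMI at 3 months, stands farthest from the line.

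Secreted and carrier proteins are products that this epithelium releases into the fluid. The list of them used here also held genes of membrane or intracellular proteins, among them Htr2c, Prlr, Slc2a12, Cab39l and Calml4. Of the 25 listed, 20 had 50 UMIs or more, 4 of these were higher past 1.5-fold, against 7.71% of all genes counted, and 0 were lower. Their median log2 ratio was 0.15, against -0.02 for all genes in members and 0.20 for the same genes in other cells. Trf (chr9:103204001-103230444, minus strand, GRCm38) encodes transferrin, the iron carrier. It had 202 UMIs at 3 months and 682 at 24 months, or 577 and 1376 CPM, with a log2 ratio of 1.25 (1.03 to 1.49). Trf went the opposite way in the other cells, where the ratio was -0.40. Thinned members with a Trf UMI were 32.7% at 3 months and 48.4% at 24 months, and other cells 20.4% and 17.0%. A second annotated gene, Gm20425, overlaps Trf on the same strand, so the split of reads between them is uncertain.

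Gpx3 (chr11:54902453-54910377), the secreted glutathione peroxidase that removes peroxides outside cells, had 13 UMIs at 3 months and 166 at 24 months. Its log2 ratio was 3.17 (2.36 to 4.11), against 0.75 in other cells. The gene was uneven between cells at 24 months: 2.73% of thinned members held a UMI at 3 months and 14.8% at 24 months, against 0.405% and 0.813% of other cells, and 5 cells carried 53.6% of the older UMIs. Without the 3 cells of each library with most Gpx3, 6 and 103 UMIs remained and the ratio was 3.59 (2.42 to 5.07), and without members that held 10 UMIs of another cell type it was 4.03.

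Apoe, the main lipid carrier of the brain, had 2412 and 5559 UMIs and was present in all thinned members at both ages, with a median of 6 UMIs per cell at 3 months and 11 at 24 months. Its log2 ratio was 0.70 (0.63 to 0.77), against 0.34 in other cells. The level of Apoe in members was below that of the other cells at both ages, at 0.609 and 0.782 times. Ace, the angiotensin-converting enzyme, had 63 and 144 UMIs and a ratio of 0.69 (0.25 to 1.14). Outside the list, Apoc1 (a small apolipoprotein) had 7 and 73 UMIs and a ratio of 2.88 (1.77 to 4.25), with 74.0% of its older UMIs in 5 cells. Without its 3 leading cells per library the ratio was 2.29 (0.78 to 4.26). A2m (alpha-2-macroglobulin, a protease inhibitor) had 39 and 132 UMIs and a ratio of 1.26 (0.73 to 1.81), against 0.01 in other cells, and Ccdc107, which overlaps Rmrp on the other strand, stood at 1.39 (0.81 to 2.01). The remaining 16 counted genes of the list stayed within 1.5-fold. Among them were Ptgds (prostaglandin D synthase, 0.08), Igf2 (insulin-like growth factor 2, 0.26), Igfbp2 (its binding protein, 0.35), Clu (clusterin, 0.20) and Enpp2 (-0.17).

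The largest ratio among the named genes came from very few cells. Spink8 (chr9:109812280-109826633), a Kazal-type serine protease inhibitor, had 1 UMI at 3 months and 218 at 24 months, with a log2 ratio of 7.27 (4.77 to 12.58). Only 16 of the 160 older members held it, and 87, 72 and 26 of the UMIs sat in 3 cells. These 3 cells held 23.7, 34.5 and 23.4% Ttr. Without the 3 leading cells in each library, 0 and 33 UMIs remained, which puts the level at 24 months at least 2.97 higher on the log2 scale when a floor of 3 UMIs over the group stands for 0, with a counting interval from 2.59. Under the 5% mitochondrial limit there were 0 UMIs in 72 members and 8 in 56, and the bound was 1.69. Other cells held 0 UMIs at 3 months and 58 at 24 months.

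Cox8b (chr7:140898945-140900446, minus strand), an isoform of a cytochrome c oxidase subunit, had 388 UMIs at 3 months and 1167 at 24 months, found in 78 and 111 of the members. Its level was 237 and 255 times that of the other cells. The log2 ratio was 1.09 (0.92 to 1.26), but it was 0.46 under the 5% mitochondrial limit, with 300 UMIs in the 72 and 340 in the 56 members that remained. The other nuclear genes of the respiratory chain did not share it. Of the 77 counted (a list drawn up after the data were seen), Cox8b alone passed 1.5-fold, and their median was -0.08 with a lowest ratio of -0.40. These 77 genes were all above their level in other cells at 24 months, and the whole list summed to 116071 and 111335 CPM against 32157 and 35179.

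**Figure D3:**
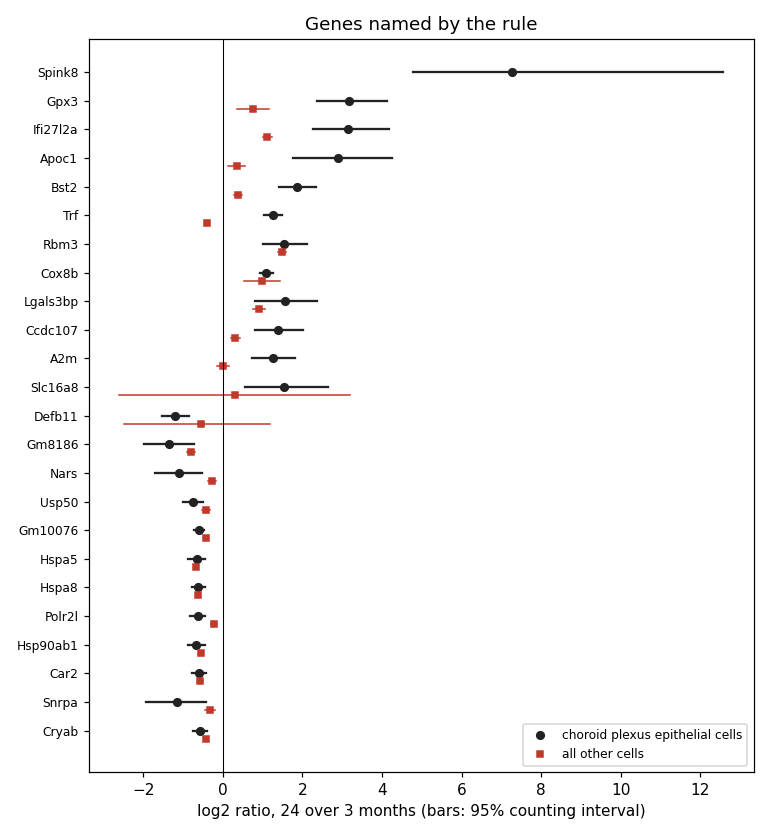
Log2 ratio of 24 over 3 months for the 24 named genes, with 95% counting intervals as bars, in choroid plexus epithelial cells (black circles) and all other cells (red squares; none for Spink8, at 0 UMIs in other cells at 3 months). Trf lies on opposite sides of 0, with 1.25 and -0.40, whereas Rbm3, Hspa5 and Hspa8 lie at nearly the same place in both.

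Ion and water transport, the machinery of fluid secretion, differed little in RNA level. Of 23 listed genes 12 had 50 UMIs or more, 0 were higher and 1 was lower, with a median log2 ratio of 0.03. The lower gene was Car2, the carbonic anhydrase that supplies bicarbonate, with 597 and 559 UMIs and a ratio of -0.60 (-0.76 to -0.43), and other cells showed -0.56. Among the rest, the sodium pump subunit Atp1b1 stood at 0.10, the sodium-potassium-chloride cotransporter Slc12a2 at 0.12 (-0.32 to 0.58), and the bicarbonate exchanger Slc4a2 at -0.17. The water channel Aqp1 had only 16 and 27 UMIs, too few for the count.

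Of 23 solute transporters 10 had 50 UMIs or more, 1 was higher and 0 lower, with a median of 0.26. The median turned to -0.16 under the 5% mitochondrial limit and to -0.18 after thinning. The higher gene was Slc16a8, a lactate and proton cotransporter, with 11 UMIs at 3 months and 45 at 24 months and a ratio of 1.53 (0.56 to 2.63). It was close to absent elsewhere, with 3 UMIs in the other cells of each library. A pair of listed vitamin carriers below 50 UMIs, named after their values were seen, also had more at 24 months. Stra6 (the retinol transporter) had 7 and 34 UMIs, and Slc19a1 (the reduced folate carrier) had 9 and 35.

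Interferon-response genes had the highest median among the functional lists with at least 3 counted genes. Of 42 listed genes 41 had UMIs in members and 7 reached 50. Of these 7, 6 were higher past 1.5-fold and 0 lower, against 7.71% and 5.67% of all genes counted. The median log2 ratio of the 7 was 1.55, against 0.77 for the same genes in other cells and -0.02 for all genes in members. Bst2 (chr8:71534255-71537456, minus strand), or tetherin, which holds budding viruses at the cell surface, had 47 UMIs at 3 months and 243 at 24 months. Its ratio was 1.87 (1.41 to 2.35) in members and 0.38 (0.28 to 0.48) in other cells, and 6.36% and 34.2% of thinned members held it, against 9.02% and 11.1% of other cells. Among barcodes marked as other types, the Bst2 ratio was 1.13 in astrocytes, 0.41 in microglia, -0.16 in endothelial cells and -0.08 in smooth muscle cells and pericytes.

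Ifitm3, which blocks viral entry at endosomes, had 50 and 324 UMIs and a ratio of 2.19 (1.76 to 2.65). It was also higher in other cells, at 0.94, and was held by 16.4% and 38.7% of thinned members against 20.3% and 36.2% of other cells. Ifi27l2a (chr12:103442167-103443680, minus strand), an interferon-induced mitochondrial protein, had 11 and 137 UMIs and a ratio of 3.14 (2.25 to 4.17), against 1.11 in other cells. Ly6e (a surface protein that restricts viruses) stood at 1.11, Ifitm2 (of the same family as Ifitm3) at 0.69 (0.25 under the 5% mitochondrial limit) and Lgals3bp (a secreted galectin-3 binder) at 1.55. The 7th gene, Ifi27, had 511 and 916 UMIs and stayed within 1.5-fold at 0.34 (0.18 to 0.50). Because the Ifitm genes form a family of similar sequence, the share of reads between Ifitm2 and Ifitm3 is uncertain.

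Some listed genes below 50 UMIs, named here after their values were seen, also had more at 24 months. With a minimum of 20 UMIs the median log2 ratio of the list was 1.87 over 13 genes, while with no minimum it was 1.08 over 41. Isg15, a ubiquitin-like modifier, had 1 and 33 UMIs, a log2 ratio of 4.54 (1.96 to 9.89). Irf9, which binds DNA within the type I interferon signalling complex, had 3 and 19, Rtp4 had 4 and 29, and Psmb8 (an immunoproteasome subunit) had 5 and 26. Per thinned member the summed list had a median of 2 UMIs at 3 months and 4 at 24 months, with maxima of 7 and 19. In other cells the medians were 1 and 2. Members with 5 or more such UMIs were 12.7% and 41.9%, and other cells 14.9% and 25.6%, so the share was higher at 24 months in both. Without members that held 10 UMIs of another cell type, the median ratio of the list was 2.09, although endothelial and smooth muscle RNA, given above, was also higher in the older members. Under the 5% mitochondrial limit it was 1.23 over 6 genes.

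Promoter sequence is shown for 3 of these genes because it carries the letters GAAANNGAAA, the core of the element that interferon-activated factors bind. Each line gives 100 bases, 5′ to 3′ on the gene's strand (RefSeq, GRCm38.p6), from the 250 bases before the gene's start, with the motif in capitals; overlapping matches run together.
Isg15, chr4:156200842-156200941, minus strand: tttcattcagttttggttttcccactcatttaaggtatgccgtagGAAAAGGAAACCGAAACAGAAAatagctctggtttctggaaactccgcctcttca
Bst2, chr8:71537548-71537647, minus strand: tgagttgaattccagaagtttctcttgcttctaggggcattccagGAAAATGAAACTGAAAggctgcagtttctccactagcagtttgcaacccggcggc
Ifitm2, chr7:140955962-140956061, minus strand: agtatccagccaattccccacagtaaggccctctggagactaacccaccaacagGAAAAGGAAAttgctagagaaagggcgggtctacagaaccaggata

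The motif, searched on both strands, occurred 3 times in Isg15, 2 times in Bst2 and 1 time in Ifitm2, the match farthest from the start lying 78, 130 and 46 bases before it. It was absent from the same window of Ifitm3, Lgals3bp, Irf9 and Psmb8. Of all 27025 genes with a promoter sequence 3.463% held it, and of the genes counted in members that were matched by name, 65 of 1950 (3.333%). Of 31 matched genes of the interferon list 14 held it (45.16%), and of the 4 that were both matched and counted, 2. A match is a description of the letters and not of binding.

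**Figure D4:**
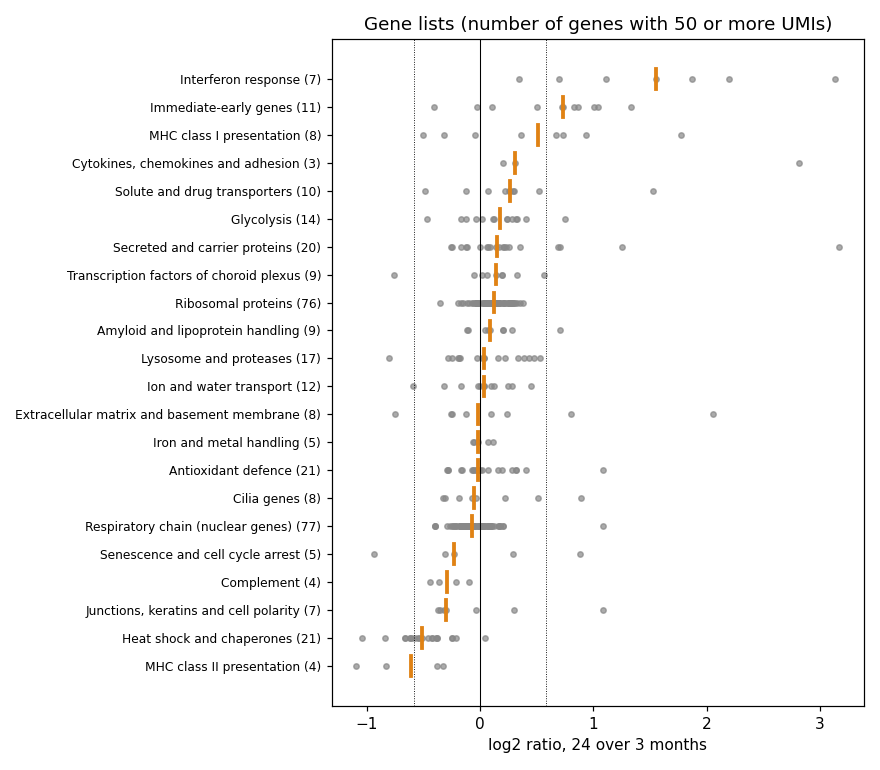
Log2 ratio of 24 over 3 months in members for each counted gene (grey points), grouped by list, with the list's median as an orange bar and its number of counted genes in parentheses; dotted lines mark 1.5-fold. Interferon-response genes (median 1.55) stand highest, and heat shock genes (-0.52) and MHC class II genes (-0.61) stand lowest.

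Genes of MHC class I, which show peptides to CD8 T cells, were partly higher. Of 8 counted, 4 were higher past 1.5-fold and 0 were lower, against 7.71% and 5.67% of all genes counted. The median of the 8 was 0.51, against 0.40 for the same genes in other cells. H2-D1, a heavy chain, had 27 and 131 UMIs, a ratio of 1.78 (1.17 to 2.43) and a share of thinned members of 6.36% and 19.4%, against 25.8% and 37.8% of other cells. B2m, the shared light chain, had 123 and 332 UMIs and a ratio of 0.93 (0.63 to 1.24). Other cells had levels above those of members for both genes and ratios of 0.80 and 0.64. H2-K1 stood at 0.73, or 1.44 without members that held 10 UMIs of another cell type, and heavy chains are similar in sequence, so reads may be split between them. Under the 5% mitochondrial limit the median of the list was 0.06 over 6 genes. When cells were thinned, only 3 class I genes kept 50 UMIs and their median was -0.41. Thinned, B2m stood at 1.23, and Calr and Pdia3 at -0.44 and -0.41, against -0.32 and -0.50 before thinning.

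MHC class II genes, normally of antigen-presenting cells, had lower summed values, which rested in large part on 1 cell. Cd74, the invariant chain, had 136 UMIs at 3 months and 90 at 24 months, a log2 ratio of -1.10 (-1.50 to -0.70), against 0.65 in other cells. A single 3-month member held 96 of these UMIs together with 30 UMIs of microglial markers. Without the 3 leading cells of each library 35 and 80 UMIs remained, and the ratio was 0.66 (0.07 to 1.27). Without members that held 10 UMIs of another cell type it was 0.44, and H2-Aa turned from -0.84 to 1.58. H2-Ab1 and H2-Eb1 turned likewise, from -0.33 to 1.00 and from -0.39 to 1.31.

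Heat shock and chaperone genes were lower at 24 months, and so they were in other cells. Of 21 counted, 7 passed 1.5-fold lower and 0 were higher, against 5.67% and 7.71% of all genes counted. The median of the 21 was -0.52 in members and -0.53 in other cells. Hspa5, the chaperone of the endoplasmic reticulum, had 417 and 373 UMIs and a ratio of -0.66 (-0.87 to -0.46), and Hspa8, its cytosolic relative, had 624 and 575 and -0.62 (-0.79 to -0.45). Their ratios in other cells were -0.68 and -0.63. The lowest ratio was that of Creld2, at -1.04 (-1.89 to -0.21). Hsp90ab1 stood at -0.67 and Cryab (a small heat shock protein) at -0.58, the latter just within 1.5-fold. The cold-inducible RNA-binding genes went the other way in members and other cells alike: Rbm3 had 36 and 148 UMIs and a ratio of 1.54 (1.00 to 2.11), with 1.48 in other cells, and Cirbp stood at 1.48, with 1.34.

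Immediate-early genes, which respond within minutes to stimulation, had a median of 0.73 in members and 0.44 in other cells. Of 11 counted genes 7 were higher and 0 lower, against 7.71% and 5.67% of all genes counted. Dusp1, a phosphatase of MAP kinases, stood at 1.33 and Fos, of the AP-1 factor, at 1.04. Their levels in members were below those in other cells, with 0 of the listed genes above them at 24 months. Under the 5% mitochondrial limit the median was 0.25 over 6 genes, and without members that held 10 UMIs of another cell type it was 1.18 over 7. The 5% limit left Fos at 0.34, and Ier2 turned from 0.73 to -0.26.

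Among the other lower genes, Defb11 (chr8:21905376-21906412, minus strand), a beta-defensin of the antimicrobial family, was almost confined to members. It had 191 UMIs at 3 months and 118 at 24 months, against 9 and 5 in all other cells, and a ratio of -1.20 (-1.54 to -0.86). Of thinned members 40.9% held it at 3 months and 18.1% at 24 months, against 0.0450% and 0.0519% of other cells, and without the 3 leading cells per library the ratio was -1.30. Beta-defensins are a clustered family, so shared reads are possible. Nars, an asparaginyl-tRNA synthetase, stood at -1.11 (-1.71 to -0.52), Snrpa (of the U1 splicing particle) at -1.16 (-0.49 under the 5% mitochondrial limit), Polr2l (an RNA polymerase subunit) at -0.64 and Usp50 at -0.75. Usp50 overlaps Gm10774 on its strand, and Gm8186 (-1.34) is annotated as a processed pseudogene and Gm10076 (-0.59) as a long non-coding RNA, so these values may include reads of other loci.

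**Figure D5:**
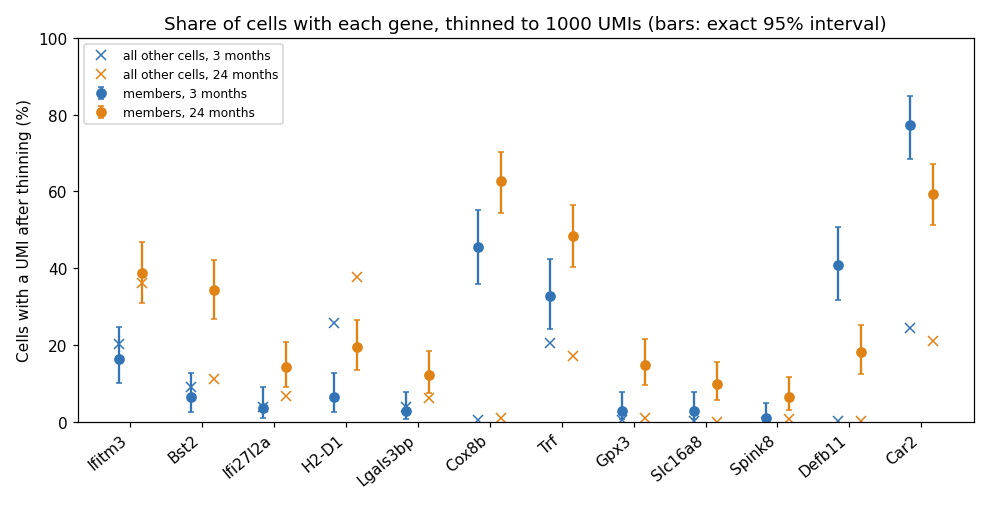
Share of cells with at least 1 UMI of each gene after thinning to 1000 UMIs, for members (circles, bars are exact Clopper-Pearson 95% intervals) and all other cells (crosses) at 3 months (blue) and 24 months (orange). Bst2 goes from 6.36% to 34.2% of members while other cells stay at 9.02% and 11.1%, and Defb11 goes from 40.9% to 18.1%.

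Ribosomal protein genes (76 counted, a list also drawn up afterwards) had 0 past 1.5-fold and a median of 0.12. Cilia genes had 1 of 8 higher and a median of -0.06, the higher one being the axonemal gene Cfap126 with 47 and 123 UMIs and a ratio of 0.89, against -0.43 in other cells. The list of choroid plexus transcription factors had 0 higher and 1 lower of 9 counted genes and a median of 0.14. It also held Rarres2 (0.56), the gene of a secreted protein. The lower gene was Id4 at -0.76, which was 0.02 under the 5% mitochondrial limit. Junction and keratin genes had a median of -0.30, against 0.13 in other cells, with 1 of 7 higher, Vim at 1.08, while Cldn2, Krt18 and Ezr stood at -0.04, -0.37 and -0.32. The median of this list depended on the UMI minimum: it was 0.02 over 14 genes with a minimum of 20 UMIs and -0.04 over 17 with none.

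Antioxidant genes had 1 of 21 higher (Sod3, the extracellular superoxide dismutase, with 13 and 39 UMIs and a ratio of 1.08, or 0.41 under the 5% mitochondrial limit) and a median of -0.02, and iron and metal genes had 0 of 5 past 1.5-fold. Neither list held Trf or Gpx3, which were higher and are counted above with the secreted and carrier proteins. Glycolysis had 1 of 14 higher (Pfkl, 0.75, or 1.35 without members that held 10 UMIs of another cell type) and a median of 0.18. The 17 counted lysosomal genes had a median of 0.03, and amyloid and lipoprotein genes had 1 of 9 higher, Apoe. Complement genes had 0 of 4 past 1.5-fold. In the senescence list Igfbp7 was higher at 0.88 and Cdkn1a, the p21 cell cycle inhibitor, lower at -0.94 (-1.70 to -0.20) with 38 and 28 UMIs and at -0.19 without members that held 10 UMIs of another cell type, while Cdkn1a was higher in other cells at 0.55. Of the cytokine list 1 of 3 was higher, Ccl5, with 5 and 50 UMIs and a ratio of 2.82, against 2.68 in other cells. Matrix genes had 2 of 8 higher, Mgp (2.06) and Lamb2 (0.80), and 1 lower, Sparc (-0.75), all below their level in other cells. The 2 counted clock genes stayed within 1.5-fold, and no gene that marks telencephalic or hindbrain position reached 50 UMIs.

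The spread between members was described by the variance over the mean, which lies near 1 for genes with few UMIs per cell whatever their expression does. After thinning, the variance over the mean had a median of 1.02 over 1694 genes with a mean of at least 0.1 UMI at 3 months and 1.02 over 1625 genes at 24 months, and it passed 2 in 18 and 16 genes. Among genes of this epithelium it was 3.73 and 3.49 for Cox8b, 3.15 and 2.70 for Enpp2, 1.59 and 1.77 for Sostdc1, and at 24 months 23.9 for Spink8 and 5.25 for Gpx3. Thinned members held 0 to 28 Enpp2 UMIs at 3 months and 1 to 30 at 24 months. Cox8b ran from 0 to 11 and from 0 to 17, with 45.5% and 62.6% of members above 0, against 0.345% and 0.916% of other cells. At 24 months 10 thinned members held Spink8, and 1 of these 10 also held Gpx3, against 15.2% of the other thinned members.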

How the data were processed

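The authors deposited raw UMI counts for 27998 genes per barcode, and per the submitters' processing notes they used Cell Ranger, mm10 and Seurat 3.2.0. The study's methods name more than 1 version of Cell Ranger without saying which made these files, and the annotation release is not given in the sources used here. The libraries held 16861865 and 14481406 UMIs. The members, gene lists, rules and alternatives were chosen with earlier results of these data known. The study's methods used a mitochondrial limit of 5%, and the 10% limit here is part of the selection.

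UMIs were summed over members per library and scaled to their total without Ttr and mitochondrial genes (350182 and 495593 UMIs). Log2 ratios carry exact conditional binomial 95% intervals, which treat UMIs as independent and are too narrow for genes held by few cells. Where a library had 0 UMIs of a gene, 3 UMIs stood in as the floor. Genes with at least 50 UMIs were counted as higher or lower at 1.5-fold, a rule of size and not a test. Named genes also needed a UMI in 10% of members of either library, which 1815 genes met with the level condition. From each list up to 4 genes with the largest ratios were named, plus genes named for their role in the epithelium; Ly6e, Ifitm2, Ifi27, Stra6, Slc19a1, Isg15, Irf9, Rtp4 and Psmb8 were chosen after their values were seen. Barcodes of another type held 5 or more UMIs of its markers and 2 times those of any other type. Thinning drew 1000 UMIs per cell. No doublets were removed; Scrublet (scanpy 1.11.5), tried as an alternative, called 3.75% and 3.18% of barcodes, among them 1 and 8 members. Gene positions come from GENCODE M21 and promoters from RefSeq, both on GRCm38. Scripts ran in Python 3.11.15 with numpy 2.4.6, scipy 1.17.1 and pandas 2.3.3. The ratio calculation was run on simulated independent counts, which cannot show how the intervals hold for genes held by few cells. Some genes of the lists are not reported here.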

Additional observations from a re-analysis of the deposited data

Results flagged for a closer look

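The 4 genes below had log2 ratios of opposite sign in members and in all other cells. The difference was not tested, since there was 1 library per age. The other cells are a sum over cell types, and the summed markers of these types also differed between ages. From 3 to 24 months, oligodendrocyte markers went from 1541 to 640 CPM in other cells and microglial markers from 10049 to 6197. Smooth muscle and pericyte markers went from 2905 to 6084 CPM. The part of this mixture in the ratios of other cells was not tested. Trf had a log2 ratio of 1.25 in members and -0.40 in other cells, a difference of 1.655. For Cfap126 the values were 0.89 and -0.43, a difference of 1.314. Cdkn1a stood at -0.94 and 0.55, a difference of -1.495. Cd74 stood at -1.10 and 0.65, a difference of -1.749, and its value in members was 0.66 without the 3 leading cells of each library.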

How the results depend on the processing

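Each age was 1 library, so mouse, preparation and age cannot be told apart, and there was no replicate to leave out. No paired analysis was possible because there was 1 library per age. Under 15 alternatives, 2 of them (members with 3000 UMIs or more, and without members with 10 UMIs of another type) chosen after seeing the data, as was leaving out leading cells, 390 of 399 list medians stayed within the counting interval of the gene or genes in the middle of the list and 9 did not, and 39 changed sign, 0 of them in lists with a median past 1.5-fold. These counts hold no median of MHC class II genes (-0.61 as reported) without members with 10 UMIs of another type. In that setting all 4 counted class II genes turned positive. Of 2873 values of single genes, 117 moved beyond their counting interval and 220 changed sign, 5 of them in genes past 1.5-fold. The cause of these shifts was not tested, except that filters change how many genes or cells remain.

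With the 5% mitochondrial limit the shares were 1.35% and 1.487% and the 24-month median of Ttr was 35.16%. In that setting 81 of 1220 genes (6.64%) were higher, against 7.71% as reported. Thinning gave 63 higher and 60 lower of 927 genes (6.80% and 6.47%). A minimum of 20 UMIs gave 706 and 548 of 5052 (14.0% and 10.8%), and no minimum gave 3067 and 3360 of 14137 (21.7% and 23.8%). The median of MHC class I genes was -0.41 after thinning, over 3 genes. That of iron genes was 0.26 with the 5% limit and 0.084 with no minimum. That of astrocyte markers, -0.17 as reported, was 0.78 with the 5% limit, 0.093 with Ttr at 20% or more, -0.40 without Scrublet calls, 0.26 without the deepest 10% of members, 0.038 with each cell weighing the same and 0.19 after thinning. The 5 genes past 1.5-fold that changed sign were Btg2 (-0.21, thinned), Ier2 (-0.26, 5% limit), Id4 (0.020, 5% limit), H2-Aa (1.58) and Cd74 (0.44), the last 2 without members with 10 UMIs of another type. Leaving out members with 3 UMIs of another type kept 9 and 5 cells and gave no value.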
